A study of Rattus norvegicus with 19 samples.

Results

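Transcripts of the glycolytic aldolases and of 8 enzymes around them were followed in the hippocampus of rats that carried 1, 2 or 3 copies of the chromosome 1 segment homologous to human 16p11.2. *Aldoa* lies inside that segment, *Aldoc* is the aldolase paralog typical of brain, and *Hk1*, *Pfkm*, *Pfkp*, *Tpi1*, *Pgk1*, *Eno2*, *Pkm* and *Ldha* encode other steps of glycolysis and lie outside the segment. These 10 genes were taken by symbol, and each symbol matched 1 of the 32623 genes in the count files. All 10 passed the expression filter, as did 15440 genes in all. The animals were male Sprague Dawley rats, an outbred stock, described by the study only as adult. The 4 groups were wt littermates (n = 6, 2 copies), Del/+ with a deletion of the *Sult1a1*-*Spn* segment on 1 chromosome (n = 4, 1 copy), Dup/+ with a duplication of the same segment (n = 5, 3 copies), and Del/Dup with a deleted and a duplicated chromosome (n = 4, 2 copies). Both alleles were made by CRISPR/Cas9 in fertilized embryos and passed on through breeding. One library per animal was sequenced, and the labels do not say which animals shared a litter. For wt replicate 5 the fields of the label disagree, since the description reads wt and the genotype field Dup/+. It was kept as wt, which gives the group sizes the study states, and its *Aldoa* level is the lowest of the wt libraries.

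Glycolysis converts glucose to pyruvate in the cytosol and is a main route of energy supply in brain. Hexokinase traps glucose in the cell, phosphofructokinase commits it to the pathway, and aldolase splits the resulting hexose bisphosphate into a pair of triose phosphates. Triosephosphate isomerase, phosphoglycerate kinase, enolase and pyruvate kinase carry the trioses to pyruvate, which lactate dehydrogenase can reduce to lactate. *Aldoa* encodes the aldolase of muscle and many other tissues and *Aldoc* the isozyme found mainly in nervous tissue, with astrocytes among its main sites of expression.

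The pair of guide RNA targets from which the study made the Sprague Dawley lines is shown because these cuts define the copy number of *Aldoa* in every carrier. They are written 5′ to 3′ as the study gives them, in lower case throughout because no part of them was analysed here.
First guide: gcaatctcacgtgtctgatgg
Second guide: gtgacatcgtgaccctgctgg

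The promoters of the aldolase pair are shown next, since *Aldoa* lies inside the segment and *Aldoc* outside it. RefSeq lists 3 start sites for *Aldoa* and 1 for *Aldoc* on the assembly GRCr8, and each window runs from 250 bases before to 50 after a start. Of the 10 genes, 9 had at least 1 window in the RefSeq table. Capitals mark ACGTG, the core of the element that hypoxia-inducible factor binds, on either strand (read as CACGT on the other), with overlapping matches counted. The third *Aldoa* window, chr1:190836728-190837027 on the minus strand, held 1 match and the other *Aldoa* windows 0, while the *Aldoc* window, chr10:63715294-63715593 on the plus strand, held 1. A match was present in 6 of the 12 windows of these genes and in 19.3% of all 33469 windows of that length, and a match describes letters only.
Aldoa, start 3: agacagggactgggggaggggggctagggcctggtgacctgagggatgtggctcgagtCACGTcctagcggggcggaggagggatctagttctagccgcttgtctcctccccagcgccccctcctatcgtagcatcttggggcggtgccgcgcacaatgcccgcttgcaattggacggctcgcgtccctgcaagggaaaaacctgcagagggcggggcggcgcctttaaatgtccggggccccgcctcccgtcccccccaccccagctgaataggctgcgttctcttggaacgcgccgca
Aldoc: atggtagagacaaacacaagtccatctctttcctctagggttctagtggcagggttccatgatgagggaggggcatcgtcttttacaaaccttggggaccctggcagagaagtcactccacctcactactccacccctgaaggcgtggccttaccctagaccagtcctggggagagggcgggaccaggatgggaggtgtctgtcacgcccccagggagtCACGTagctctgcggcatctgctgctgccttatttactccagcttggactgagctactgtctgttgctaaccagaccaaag

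Depth was 16191192 to 38760645 reads per library over all genes. The share of reads that aligned to more than 1 place was 40.1% to 50.5% in wt and Dup/+ and 57.8% to 70.7% in Del/Dup, while Del/+ held replicate 4 at 41.6% and replicates 1 to 3 at 63.9% to 76.3%. Those reads were not counted for any gene. How many of them came from the members was not measured. For GRCr8, not the rn6 build of the alignment, the RefSeq table names 30 pseudogenes after *Ldha*, 19 after *Pkm*, 9 after *Aldoa*, 8 after *Pgk1* and 3 after *Tpi1*, and none after the other 5. Levels are counts-per-million (CPM) on scaled library sizes and are not scaled by gene length, so that a sum or order over genes is one of reads. All 10 neuron markers, all 4 markers of hippocampal neurons, and all 10 astrocyte markers were above the filter.

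*Aldoa* followed the copy number of the segment (ENSRNOG00000052802). In wt its level ran from 1350 CPM through a median of 1423 to 1444 CPM, on 36068 to 54292 reads. The Del/+ libraries stood at 794, 694, 680 and 668 CPM, and the Dup/+ libraries at 2047, 2106, 2188, 2025 and 1954 CPM. In Del/Dup the level was 1224, 1284, 1299 and 1298 CPM. No 2 groups overlapped, with every Del/+ library at the bottom, every Dup/+ library at the top, and every Del/Dup library just under the lowest wt library. Del/+ replicate 1 was the highest of its group.

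**Figure D1:**
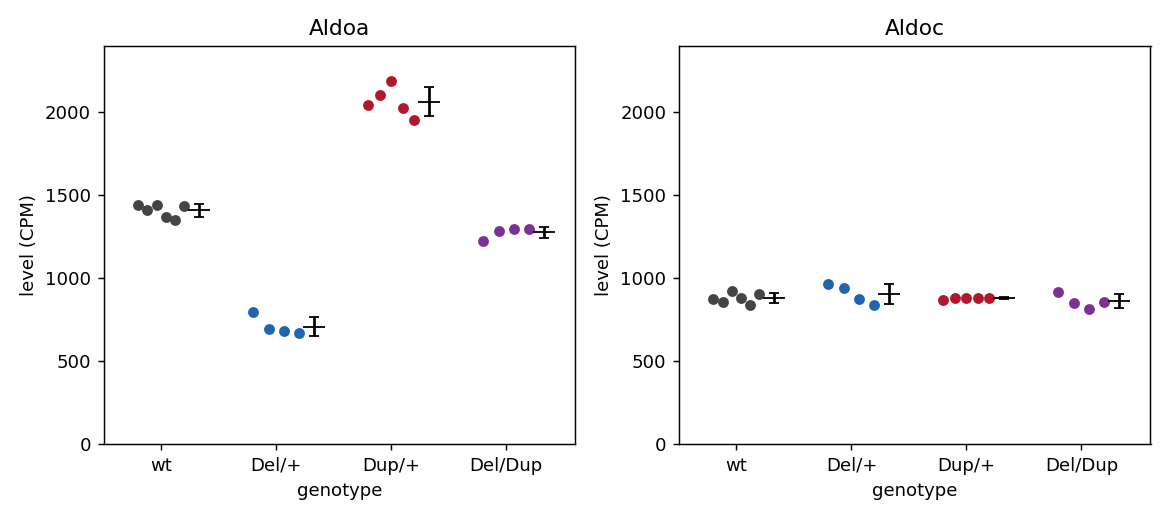
Level of *Aldoa* and *Aldoc* in CPM (vertical axes) by genotype (horizontal axes). Points are libraries, and the bar beside each group gives mean ± SD. The *Aldoa* groups are apart from one another, at means of 709 CPM in Del/+, 1276 CPM in Del/Dup, 1409 CPM in wt and 2064 CPM in Dup/+, while all *Aldoc* libraries lie between 816 and 967 CPM.

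Against a mean of 1409 ± 40.6 CPM (SD, n = 6) in wt, *Aldoa* was at 709 ± 57.8 CPM (SD, n = 4) with a single copy. On the log2 scale the difference was -0.99 (SE 0.0471), and *Aldoa* was called lower by the quasi-likelihood test of edgeR (adjusted p = 2.21e-11). It was the 1 member called among 10 in Del/+, where 0.771% of all genes were called. With 3 copies *Aldoa* reached 2064 ± 88.0 CPM (SD, n = 5). It was higher than wt by 0.55 on the log2 scale (SE 0.0427), and edgeR gave an adjusted p of 1.97e-07. Again 1 of the 10 members was called, beside 0.272% of all genes. A slope fitted on the number of copies was 0.76 per copy on the log2 scale (SE 0.0393, edgeR adjusted p = 2.68e-11), with 1 member and 0.576% of all genes called. The *Aldoa* calls in Del/+, in Dup/+ and for the slope were kept under every alternative run. Counting wt replicate 5 as Dup/+ gave the weakest of them, with a change of 0.45 in Dup/+ (edgeR adjusted p = 0.0424).

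Del/Dup animals, which have as many copies as wt, had 1276 ± 35.6 CPM of *Aldoa* (SD, n = 4). The log2 fold change from wt was -0.14 (SE 0.0458, 95% interval -0.24 to -0.05), and it did not pass the threshold (unadjusted p = 0.00535, edgeR adjusted p = 0.174). None of the 10 members was called there, beside 0.0907% of all genes, and DESeq2 called none either. At an unadjusted p under 0.05 there were 2 of the 10 members, beside 2504 of all 15440 genes. Over the 6 comparisons between 1309 and 2848 of the 15440 genes were under that unadjusted threshold, against which the unadjusted counts of other lists are to be read. The 4 Del/Dup libraries all lay below the lowest wt library, and all 4 were on the high side of the multi-mapped share where no wt library was, so that genotype and that share cannot be told apart in this comparison. With a term for the multi-mapped share, which only Del/+ held on both sides (replicate 4 against the other 3), the change was -0.26 (edgeR adjusted p = 0.288). Against Del/+, *Aldoa* was higher in Del/Dup by 0.85 (SE 0.0504, edgeR adjusted p = 1.14e-09), the 1 call among the members where 0.175% of all genes were called. Among the 3 Del/+ and 4 Del/Dup libraries on the high side of the share the difference was 0.82 (edgeR adjusted p = 0.00118). Against Dup/+, *Aldoa* was lower by 0.69 on the log2 scale in Del/Dup (log2 difference -0.69, SE 0.0480, edgeR adjusted p = 3.88e-08), also the 1 call among the members, beside 0.317% of all genes.

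In order, the *Aldoa* levels were Del/+, Del/Dup, wt and Dup/+. Of the neighbours in this order, Del/+ and Del/Dup differed beyond their spread, and so did wt and Dup/+, while Del/Dup and wt did not pass the test. Set beside the ratio of copies, the fold of Del/+ over wt was 0.503 (95% interval 0.470 to 0.539), which includes the copy ratio of 0.5. The fold of Dup/+ over wt was 1.46 (1.38 to 1.56), which includes 1.5. The fold of Del/Dup over Del/+ was 1.80 (1.67 to 1.94) beside a copy ratio of 2, and that of Del/Dup over Dup/+ was 0.618 (0.577 to 0.663) beside 0.667. Over all alternatives the log2 difference of Del/Dup from Del/+ stayed at 0.82 to 0.91, under the log2 copy ratio of 1. That from Dup/+ stayed at -0.81 to -0.61, beyond -0.585. How far they lay from these ratios in SE varied. With wt replicate 5 counted as Dup/+, the log2 differences were 0.85 (SE 0.0981) and -0.61 (SE 0.0904), within 2 SE of the log2 copy ratios. The first of them was also 0.85 in the main fit, with a smaller SE of 0.0504. The Del/Dup to Dup/+ difference came within 2 SE of its copy ratio also with the replicate block (-0.68, SE 0.0490), with *Ttr* as a covariate (-0.67, SE 0.0534), and without Dup/+ replicate 2 (-0.69, SE 0.0516), Dup/+ replicate 3 (-0.67, SE 0.0475) or Del/Dup replicate 2 (-0.67, SE 0.0510). All Dup/+ libraries, like those of wt, had a lower multi-mapped share than any Del/Dup library, so that genotype and that share cannot be told apart here either. With the term for that share the Del/Dup to Dup/+ difference in *Aldoa* was -0.81 on the log2 scale (edgeR adjusted p = 0.000904). Per copy, *Aldoa* stood at 705 ± 20.3 CPM in wt, 709 ± 57.8 CPM in Del/+, 688 ± 29.3 CPM in Dup/+ and 638 ± 17.8 CPM in Del/Dup (mean ± SD over 6, 4, 5 and 4 libraries). The Del/Dup libraries, at 612 to 649 CPM per copy, lay under the range of wt (675 to 722), Del/+ (668 to 794) and Dup/+ (651 to 729).

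Among the genes of the segment, the *Aldoa* change lay in the middle of the range in Dup/+ and Del/Dup and within 1 SE of the median in Del/+. Of 32 listed segment genes, 27 were tested. In Del/+ 25 of these were called lower and the median log2 difference was -1.01. There *Aldoa* ranked 18 by size, between *AABR07005779.6* (-1.0) and *Kif22* (-0.99). In Dup/+ 20 were called higher with a median of 0.51, and *Aldoa* ranked 12, between *Mapk3* (0.57) and *Ino80e* (0.54). In Del/Dup the median was -0.06 with 1 gene called lower, and *Aldoa* ranked 13, between *Bola2* (-0.15) and *Hirip3* (0.13). *Aldoa* collected the most reads of the 27 genes, and by p it ranked 3 among them in Del/+ and in Dup/+.

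**Figure D2:**
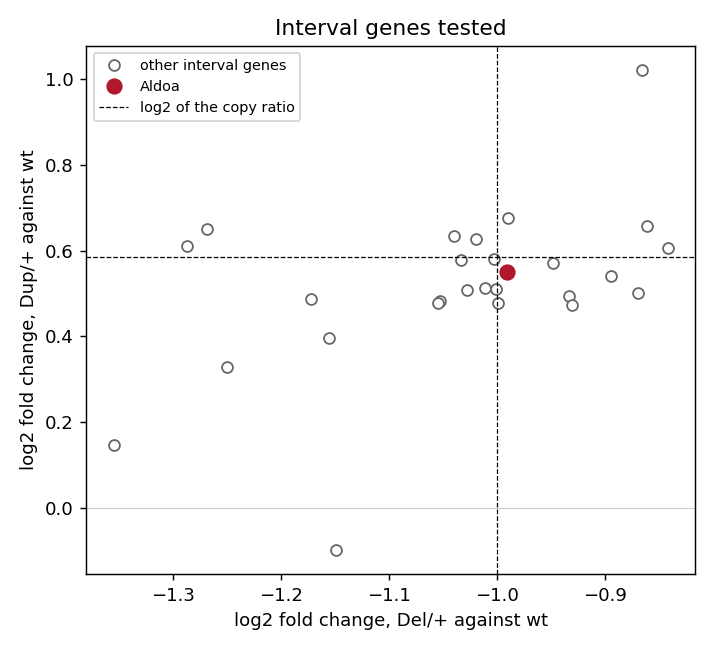
Log2 fold change against wt of the 27 tested genes of the segment, in Del/+ (horizontal axis) and Dup/+ (vertical axis). *Aldoa* is the filled point at -0.99 and 0.55, open points are the other genes, and the dashed lines mark the log2 ratio of copies in each comparison.

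The genes whose log2 level followed *Aldoa* most closely over the 19 libraries were all from the segment: *Taok2* (Pearson r = 0.991), *Cdipt* (0.990), *Mapk3* (0.987), *Coro1a* (0.987) and *Ino80e* (0.986). Outside the listed segment genes they were *AABR07005779.2* (r = 0.981), whose name shares the contig of listed genes, then *AABR07070225.1* (0.928), *Tgfb1i1* (0.880), *Rad21l1* (0.865) and *Ptx3* (0.846). These values describe the 19 libraries, which share their group means and depth. Because the groups differ in copies of the segment, the ranking favours its genes, and the absence of glycolytic genes from it cannot be read as a result. In deviations from the group means, the r of *Aldoa* with the other members ran from -0.11 (*Pfkp*) to 0.56 (*Pkm*), without a test.

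*Aldoc* (ENSRNOG00000011452) was called in none of the 6 comparisons in edgeR. Its level was 839 CPM at the lowest, 876 at the median and 925 at the highest in wt. Del/+ libraries stood at 967, 942, 875 and 839 CPM, Dup/+ libraries at 869, 884, 882, 880 and 879 CPM, and Del/Dup libraries at 918, 853, 816 and 859 CPM. All 3 carrier groups overlapped wt. The log2 fold change was 0.04 in Del/+ (95% interval -0.05 to 0.13, edgeR adjusted p = 0.638), -0.00 in Dup/+ (-0.08 to 0.08, adjusted p = 0.998) and -0.03 in Del/Dup (-0.12 to 0.06, adjusted p = 0.752). The genes most like *Aldoc* in their deviations from the group means over the 19 libraries were *Rad51d* (r = 0.785), *Nudt2* (0.785), *Ndufb10* (0.776), *Vps36* (0.764) and *AABR07037436.1* (0.757), a description with no test.

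The reads of *Aldoa* and *Aldoc* together summed to 2289 ± 65.9 CPM in wt (SD, n = 6). The sum was 1615 ± 112 CPM in Del/+ (SD, n = 4), 2943 ± 90.0 CPM in Dup/+ (SD, n = 5) and 2137 ± 17.3 CPM in Del/Dup (SD, n = 4). Each group kept a range of its own, from 1507 to 1762 CPM in Del/+ up to 2833 to 3069 CPM in Dup/+. *Aldoa* gave 61.6% ± 0.609 of these reads in wt, 43.9% ± 1.12 in Del/+, 70.1% ± 0.854 in Dup/+ and 59.7% ± 1.81 in Del/Dup (SD, same n). In every Del/+ library more of the reads came from *Aldoc* than from *Aldoa*, with an *Aldoa* share of 42.4% to 45.1%, and in every library of the other groups fewer. These are shares of reads, not of molecules, and they were not tested, being sums over the members.

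**Figure D3:**
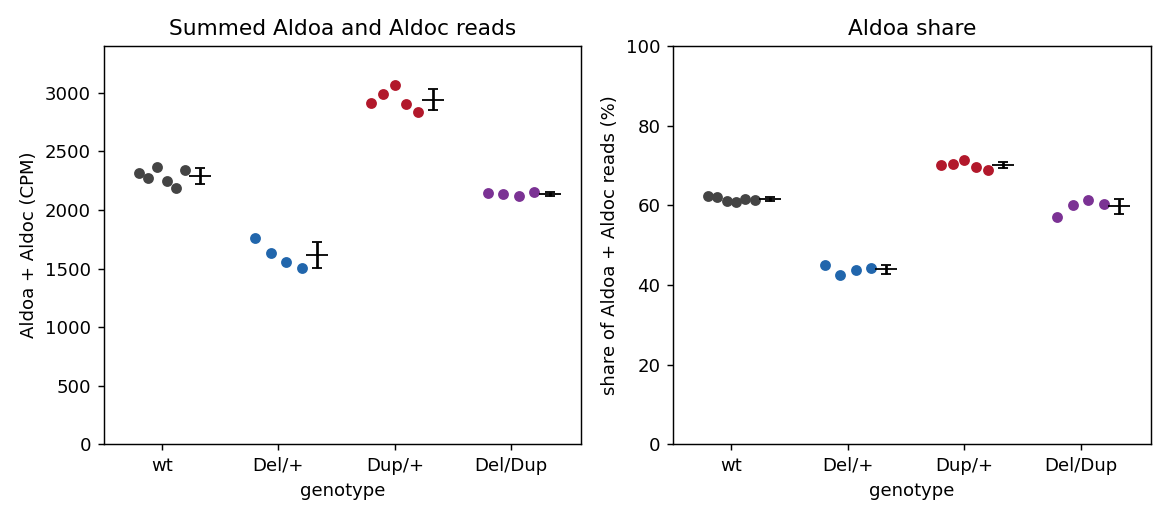
Summed *Aldoa* and *Aldoc* level in CPM (left) and share of *Aldoa* among those reads in percent (right) by genotype. Points are libraries and bars mean ± SD. The Del/+ share lies at 42.4% to 45.1% and the wt share at 60.9% to 62.3%.

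At the entry of the pathway, *Hk1*, the main hexokinase of brain, was at 377 to 425 CPM in wt (median 399.9). Its level was 389, 387, 406 and 357 CPM for Del/+, 387, 384, 384, 408 and 387 CPM for Dup/+, and 359, 391, 364 and 362 CPM for Del/Dup. In Del/Dup 3 of the 4 libraries were below the lowest wt library and the other one was inside the wt range, a log2 difference of -0.12 (SE 0.0437, unadjusted p = 0.0130, edgeR adjusted p = 0.209). The changes of *Hk1* in Del/+ (-0.06) and Dup/+ (-0.04) were smaller. *Pfkm*, the muscle-type subunit of phosphofructokinase, was at 482 ± 6.18 CPM in wt (SD, n = 6), the smallest coefficient of variation among the members there (1.28%). It was at 488 ± 21.8 CPM in Del/+, 474 ± 9.46 CPM in Dup/+ and 473 ± 16.6 CPM in Del/Dup, with log2 fold changes of 0.02, -0.02 and -0.03. *Pfkp*, the platelet-type subunit that brain also uses, was at 328 ± 5.38 CPM in wt, 327 ± 15.6 in Del/+, 328 ± 17.4 in Dup/+ and 332 ± 33.3 in Del/Dup, and its changes were between -0.00 and 0.02.

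**Figure D4:**
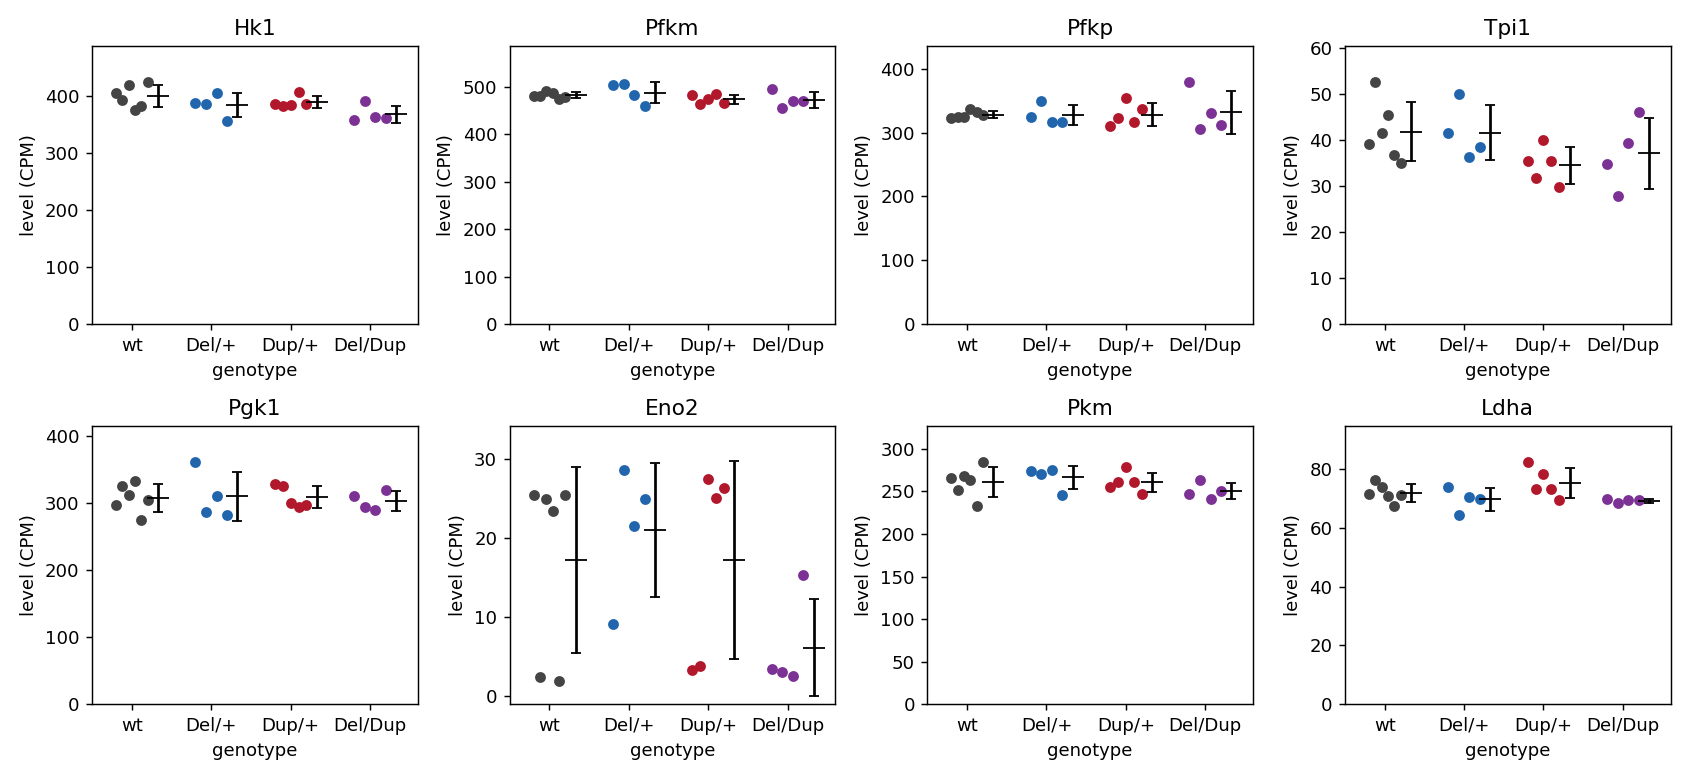
Level in CPM (vertical axes from 0, or just under it for *Eno2*) of the 8 other members by genotype. Points are libraries, and bars give mean ± SD. Each carrier group overlaps wt in every panel, and *Eno2* has low libraries (1.90 and 2.40 CPM) and high ones (23.4 to 25.4 CPM) within wt.

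Below aldolase, *Tpi1* (triosephosphate isomerase) was at 41.8 ± 6.42 CPM in wt (SD, n = 6) and 41.6 ± 5.98 CPM in Del/+ (SD, n = 4). It stood at 35.5, 31.8, 40.0, 35.3 and 29.7 CPM in Dup/+, with 3 of these 5 inside the wt range of 35.1 to 52.6 CPM and the other two below it. In Del/Dup it stood at 34.9, 27.8, 39.5 and 46.2 CPM. The Dup/+ change of -0.28 (SE 0.120, 95% interval -0.53 to -0.03) had an unadjusted p of 0.0292 and did not pass in edgeR (adjusted p = 0.498). *Pgk1* (phosphoglycerate kinase) was at 308 ± 20.7 CPM in wt, 310 ± 36.0 in Del/+, 308 ± 16.4 in Dup/+ and 303 ± 14.3 in Del/Dup, with changes between -0.02 and 0.01. *Pkm* (pyruvate kinase) was at 261 ± 17.3 CPM in wt, 266 ± 13.8 in Del/+, 261 ± 11.3 in Dup/+ and 250.5 ± 9.57 in Del/Dup, with changes between -0.06 and 0.03. *Ldha*, the subunit of lactate dehydrogenase that favours lactate formation, was at 71.8 ± 3.04 CPM in wt, 69.7 ± 3.90 in Del/+, 75.3 ± 5.03 in Dup/+ and 69.2 ± 0.607 in Del/Dup. Its slope on copies was 0.06 (unadjusted p = 0.0298, edgeR adjusted p = 0.370).

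*Eno2*, the neuronal enolase, had the widest spread of the members within a genotype. Its transcript is known as an abundant one in neurons, and its counts here were low. The rn6 gene model behind the counts was not examined, so the values are those of the counted feature and may not stand for the level of the whole transcript. In wt it was at 25.4, 2.40, 24.9, 23.4, 1.90 and 25.4 CPM, on 62 to 956 reads. Del/+ libraries were at 9.14, 28.6, 21.5 and 24.9 CPM, Dup/+ libraries at 3.30, 3.81, 27.4, 25.1 and 26.3 CPM, and Del/Dup libraries at 3.50, 3.09, 2.61 and 15.4 CPM. Low and high libraries occurred in wt and in Dup/+, whereas 3 of 4 Del/+ libraries were high and 3 of 4 Del/Dup libraries low. The changes against wt were 0.29 in Del/+ (SE 0.658), -0.02 in Dup/+ (SE 0.637) and -1.45 in Del/Dup (SE 0.756, 95% interval -3.03 to 0.13, edgeR adjusted p = 0.344). A change of the size seen in *Aldoa* was therefore not detectable for *Eno2*.

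**Figure D5:**
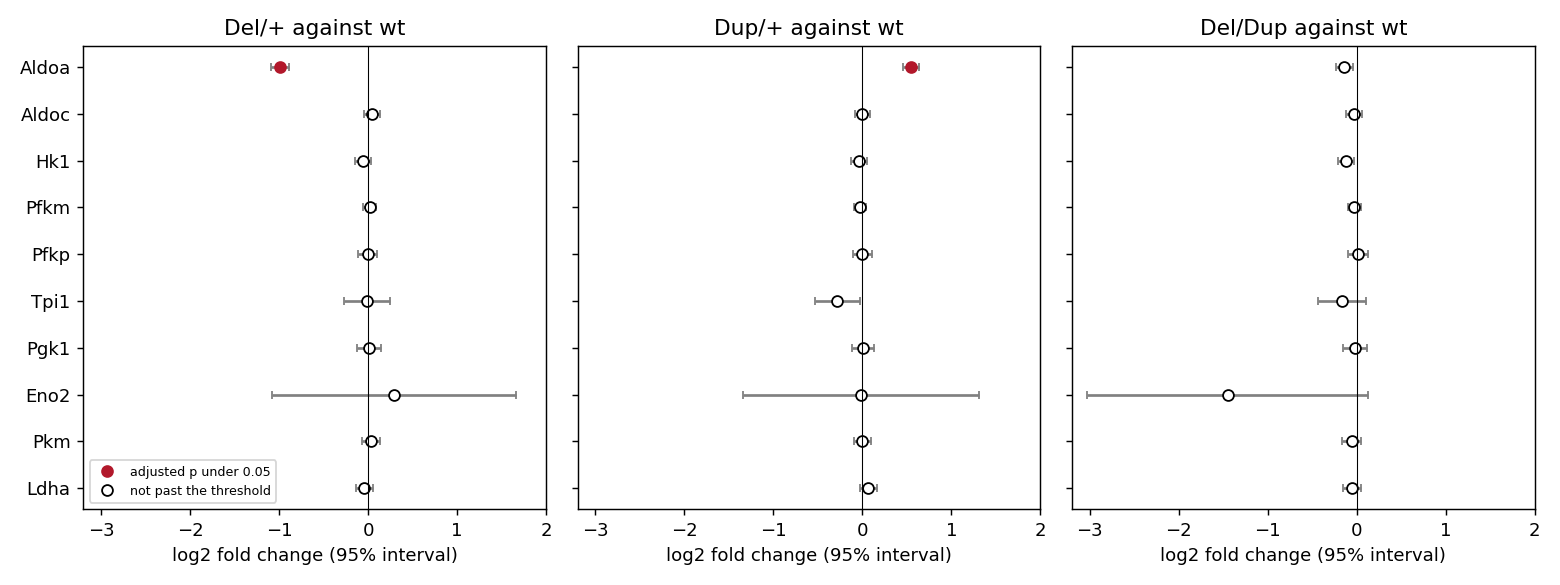
Log2 fold change against wt (horizontal axes) of the 10 members in Del/+, Dup/+ and Del/Dup, with 95% intervals from the edgeR fit. Filled points passed an adjusted p of 0.05, which *Aldoa* alone did, at -0.99 in Del/+ and 0.55 in Dup/+, and *Eno2* has the widest interval.

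Over the 10 members the median log2 difference from wt was 0.00 in Del/+, -0.00 in Dup/+ and -0.06 in Del/Dup. All genes tested had medians of 0.00, -0.00 and 0.00. In Del/Dup 9 of the 10 were negative, and none of them was called. For *Aldoc*, *Hk1*, *Pfkm*, *Pfkp*, *Pgk1*, *Pkm* and *Ldha* the 95% intervals of the changes against wt all lay between -0.21 (*Hk1* in Del/Dup) and 0.16 (*Ldha* in Dup/+). The coefficient of variation among wt libraries was 2.88% for *Aldoa* and from 1.28% (*Pfkm*) to 67.9% (*Eno2*) over the members, beside a median of 8.58% over all genes tested.

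The wider pathway was examined through lists written with the members. Of 14 other glycolytic enzymes, 8 were tested and none was called in any of the 6 comparisons in edgeR, with at most 2 at an unadjusted p under 0.05. *Gpi*, which isomerises glucose 6-phosphate, was at 650.4 ± 15.2 CPM in wt, and its log2 differences of -0.06 (Del/+), 0.00 (Dup/+) and -0.07 (Del/Dup) were not called. *Pgam1* (phosphoglycerate mutase) was at 392 ± 14.3 CPM in wt and 358 ± 9.73 CPM in Del/Dup, a log2 fold change of -0.13 (unadjusted p = 0.00918, edgeR adjusted p = 0.197). *Eno1*, the enolase of most tissues, was at 191 ± 18.2 CPM in wt with log2 differences of -0.15, -0.17 and -0.12 in Del/+, Dup/+ and Del/Dup, none of them called. *Gapdh* was not analysed here. Of 12 regulators of glycolysis, such as the bifunctional *Pfkfb* enzymes and the pyruvate dehydrogenase kinases, 10 were tested and none was called, with at most 4 at an unadjusted p under 0.05.

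Of 12 genes for the handling of glucose, lactate and pyruvate, 11 were tested, and 1 was called in Del/+, beside 0.771% of all genes, and none in Dup/+ or Del/Dup. *Slc16a1*, a monocarboxylate transporter that carries lactate and pyruvate across the plasma membrane, was at 51.2 ± 2.63 CPM in wt (SD, n = 6). All 4 Del/+ libraries were above the highest wt library, at 61.9 ± 5.59 CPM (SD, n = 4), and *Slc16a1* rose by 0.27 on the log2 scale (SE 0.0546, edgeR adjusted p = 0.0206). It was at 48.9 ± 1.21 CPM in Dup/+ and 52.4 ± 3.77 CPM in Del/Dup, neither called, and it fell with copies at -0.17 per copy (SE 0.0306, edgeR adjusted p = 0.00759). The Del/+ call was lost without wt replicate 2 (0.26, adjusted p = 0.0508), wt replicate 3 (0.25, adjusted p = 0.0622) or Del/+ replicate 2 (0.26, adjusted p = 0.112), and with the multi-mapped term both calls were lost (0.20, adjusted p = 0.340, and -0.15, adjusted p = 0.133). The glucose transporter *Slc2a1* was at 106 ± 6.21 CPM in wt, with log2 differences of -0.06, -0.12 and -0.10 in Del/+, Dup/+ and Del/Dup, none called. The neuronal glucose transporter *Slc2a3* had 0.563 ± 0.136 CPM in wt, on 13 to 27 reads, and its interval in Del/Dup ran from -1.08 to 0.14. Its rn6 gene model was not examined, so these values are those of the counted feature and may not stand for the level of the transcript. *Ldhb*, the lactate dehydrogenase subunit that favours pyruvate formation, differed from wt by 0.15 on the log2 scale in Del/+ (unadjusted p = 0.0115, not called in edgeR, adjusted p = 0.147).

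In whole tissue, fewer cells of a type and less RNA per cell cannot be told apart, so the markers of cell types are given beside these values. None of the neuron, hippocampal, astrocyte, oligodendrocyte, microglia or endothelial markers was called in any of the 6 comparisons in edgeR, with between 0 and 5 genes of a list at an unadjusted p under 0.05. The 5 were of the 6 oligodendrocyte markers in Del/+, beside 2848 of all 15440 genes. In Dup/+ 1 of these 6 was under that threshold and in Del/Dup 3, beside 1380 and 2504 of all genes. Summed astrocyte markers were between 5999 and 6952 CPM for wt, 5925 and 6348 CPM for Del/+, 5890 and 6555 CPM for Dup/+, and 5735 and 6352 CPM for Del/Dup. Summed neuron markers were between 12410 and 13850 CPM for wt, 12050 and 13210 CPM for Del/+, 12140 and 13320 CPM for Dup/+, and 11560 and 12560 CPM for Del/Dup, so that each carrier group overlapped wt. In Del/+, Dup/+ and Del/Dup in turn, 6, 7 and 9 of the 10 neuron markers and 8, 9 and 9 of the 10 astrocyte markers were lower than wt, beside 5, 6 and 9 of the 10 members. So were 4, 2 and 4 of the 4 hippocampal markers (median log2 differences -0.13, -0.03 and -0.23) and 6, 5 and 6 of the 6 microglia markers (-0.10, -0.12 and -0.06). The part of these markers in the member values was not tested. Oligodendrocyte markers were higher than wt in 6 of 6 genes in every carrier group, with median log2 differences of 0.31 in Del/+, 0.14 in Dup/+ and 0.20 in Del/Dup, beside 0.27, -0.07 and 0.03 for *Slc16a1*. In Del/+ they had sums between 5882 and 8819 CPM beside 4995 to 6468 CPM for wt, and their part in the *Slc16a1* result was not tested. All 6 tested choroid plexus markers were higher than wt in each carrier group, none called, with 6 at an unadjusted p under 0.05 in Del/+ and in Del/Dup and 2 in Dup/+. Their sums spanned 3.78 to 35.0 CPM in wt and reached 1261 CPM in Del/+, 408 CPM in Dup/+ and 1211 CPM in Del/Dup. With the choroid plexus gene *Ttr* as a covariate, the change of *Aldoa* was -0.97 in Del/+, 0.57 in Dup/+ and -0.10 in Del/Dup. Of the 4 tested rows for red blood cell genes, 3 were called higher in Dup/+, and all 4 together summed to 180 to 243 CPM there against 117 to 159 CPM in wt.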

How the data were processed

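Hippocampal RNA of 19 male rats was measured as 1 library per animal. The authors made stranded libraries with rRNA removal per the labels (another field and the methods name polyA RNA), sequenced single-end reads of 50 bases, aligned them to rn6 (Ensembl release 96) with HISAT2, and used HTSeq to assign them to genes. The deposited values are raw counts per gene with no normalization, and the 5 summary lines of each file were kept out of the gene tables.

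Counts were scaled by TMM and tested in edgeR 4.0.16 under R 4.3.3 (quasi-likelihood, all libraries in 1 fit, no covariate), after filterByExpr left 15440 of the 24345 genes with a read. A gene was called where its p, adjusted by Benjamini-Hochberg over all genes tested, was under 0.05. The SE and 95% intervals came from the F statistic of the fit. DESeq2 1.42.0, other scalings, no filter, a replicate block, single libraries left out and a multi-mapped term (limit 55%) were alternatives. The test was checked on simulated counts with known answers. Replicates varied with a common biological coefficient of variation of 0.101, to which counting error adds for genes with few reads. Library pairs of a group differed beyond counting noise (chi-square per degree of freedom 3.46 to 56).

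The members and lists were chosen with earlier results of these data known. Named genes were the members, listed pathway genes called against wt, segment genes ranked next to *Aldoa*, *Gapdh*, *Gpi*, *Pgam1*, *Eno1*, *Slc2a1*, *Slc2a3*, *Ldhb*, and those most like *Aldoa* or *Aldoc* by correlation. GRCr8 tables of RefSeq gave names, pseudogenes and promoter windows only. A planned sum over aldolase reads was taken over *Aldoa* and *Aldoc* only, and 1 gene of it and of the enzyme list is not reported here.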

Additional observations from a re-analysis of the deposited data

Results flagged for a closer look

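Of 40 groups of libraries examined (10 members in 4 genotypes), 3 held a library far from the rest of its group by Dixon's criterion, which chance flags in about 1 group of 20. *Hk1* in Dup/+ replicate 4 was at 408 CPM with the next library at 387 CPM. *Hk1* in Del/Dup replicate 3 was at 391 CPM with the next at 364 CPM. *Eno2* in Del/Dup replicate 5 was at 15.4 CPM with the next at 3.50 CPM.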

How the results depend on the processing

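No alternative changed the count of members called (1 in Del/+, Dup/+, the slope and both comparisons with Del/Dup against another carrier group, and 0 in Del/Dup against wt) or moved any call of a member, over 169 values of *Aldoa* and 1521 of the other members. Leaving out single libraries gave *Aldoa* changes of -1.04 to -0.96 (Del/+), 0.53 to 0.57 (Dup/+) and -0.15 to -0.12 (Del/Dup). The other alternatives gave -1.08 to -0.97, 0.45 to 0.57 and -0.26 to -0.10, and the adjusted p in Del/Dup was between 0.0803 (DESeq2) and 0.699 (*Ttr* as a covariate, chosen after seeing the data). With a replicate block the changes were -1.0, 0.56 and -0.12. Of 24 pairs of libraries from different groups with the same number in the labels, 2 had deviations correlated over 0.1 (median 0.0139). Of 110 such pairs with other numbers, 21 did (median 0.00149). No pairing by number was seen in these values, which cannot exclude shared litters or processing. The calls over all genes, and with them the background shares, varied more, from 46 to 591 in Del/+ and from 2 to 216 in Del/Dup. Reads that aligned to more than 1 place were not counted, and how many of them came from the members or their copies was not measured. Few reads limit *Slc2a3*, and the spread between libraries limits *Eno2*. The rn6 gene model was not examined for either gene.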

Other observations

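*Eno2* libraries fell into separate bands of level, with low and high libraries both within wt and within Dup/+. Of the 19 libraries, 7 were at 1.90 to 3.81 CPM (2 wt, 2 Dup/+ and 3 Del/Dup), 2 at 9.14 and 15.4 CPM (1 Del/+ and 1 Del/Dup), and 10 at 21.5 to 28.6 CPM (4 wt, 3 Del/+ and 3 Dup/+). The highest level was 15.0 times the lowest. *Atn1*, the coding gene before *Eno2* in the GRCr8 order and chosen after these values were seen, ran from 3.81 to 10.2 CPM (2.69 times). The cause of the bands was not tested.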
